A study of Homo sapiens with 2 samples.

Results

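The MHC class II genes and their transactivator were examined in RNA sequencing data from REH and 697, which are established human lines of BCP-ALL, the acute lymphoblastic leukemia of B-cell precursors. The 10 genes were given as a list of names. They are the chains of HLA-DR, HLA-DP and HLA-DQ (HLA-DRA, HLA-DRB1, HLA-DPA1, HLA-DPB1, HLA-DQA1 and HLA-DQB1), the peptide editor HLA-DM (HLA-DMA and HLA-DMB), the invariant chain CD74 and CIITA. All 10 were found among the 57773 gene IDs of the count files. REH carries the ETV6/RUNX1 translocation and has a deletion of its remaining ETV6 allele. The line 697 is negative for the fusion, and both lines were untreated and grown in RPMI with fetal bovine serum. The files hold 1 library per line, so fusion status, line and library cannot be told apart, no p-value can be given, and every comparison is between these libraries.

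MHC class II molecules are heterodimers of an alpha and a beta chain that present peptides from endosomes to CD4+ T cells. CD74 escorts the newly made dimer and blocks its groove, and HLA-DM exchanges the remaining CD74 fragment for other peptides. CIITA binds no DNA itself. It is recruited by a complex of RFX, CREB and NF-Y proteins that sits on the X and Y boxes of class II promoters, and its own B-cell promoter is read by B-lineage factors. Class II expression accompanies the B lineage from early precursors on, and HLA-DR is a routine marker of BCP-ALL.

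Depth was similar in both libraries. The REH library comprised 63954817 reads with 45188375 in genes, and the 697 library 58948890 reads with 41097497 in genes. The libraries differed in the share of reads that mapped to several places (10.8% in REH and 15.4% in 697) and of reads outside genes (12.7% and 9.32%). Levels are given as CPM (reads per 1000000 reads in genes, with totals scaled by TMM, a trimmed mean of gene ratios), and 3 reads, taken as the detection floor, correspond to 0.0664 CPM in REH and 0.0730 CPM in 697 before scaling. Ratios are log2 of REH over 697 with 0.5 reads added to each count, each with a 95% counting interval that covers sampling of reads only. A log2 ratio of 2 or more in either direction was the threshold for calling a gene higher in that line. Of the 12 B-lineage markers, 11 reached 10 reads in both libraries. Since 13489 of 19208 protein-coding genes reached 10 reads in REH or 697, this count does not test the label of a B-cell precursor. The markers summed to 5875 CPM in REH and 8367 CPM in 697, where DNTT alone had 4433 CPM. VPREB1, a surrogate light chain component, was the exception in REH with 3 reads, against 10039 reads in 697. In these bulk libraries, fewer cells with class II transcripts and fewer transcripts per cell cannot be told apart.

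Promoter sequences are shown first because CIITA is recruited at the X and Y boxes of class II promoters. Windows of RefSeq promoters (GRCh38.p14, 250 bases before to 50 after a start) were found for 8 of the 10 genes, and none for HLA-DRA and CIITA. The stretch from 125 to 36 bases before the start is printed 5′ to 3′ on the strand of the gene for 6 of them. HLA-DPA1 and CD74 are not printed. Capitals mark the letters ATTGG of the Y box or its reverse CCAAT, the letters GCAAC found in X boxes, and CTGATGATG, a run chosen after the windows had been read. In HLA-DRB1 the last base of GCAAC is the first of CTGATGATG.

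HLA-DRB1: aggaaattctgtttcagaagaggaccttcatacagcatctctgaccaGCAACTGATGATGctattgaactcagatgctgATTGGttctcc
HLA-DMA: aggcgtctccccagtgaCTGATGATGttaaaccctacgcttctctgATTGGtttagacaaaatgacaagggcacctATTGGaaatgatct
HLA-DMB: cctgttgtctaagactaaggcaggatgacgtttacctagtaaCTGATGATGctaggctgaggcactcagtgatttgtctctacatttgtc
HLA-DQA1: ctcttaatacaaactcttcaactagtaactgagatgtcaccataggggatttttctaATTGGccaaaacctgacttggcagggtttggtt
HLA-DQB1: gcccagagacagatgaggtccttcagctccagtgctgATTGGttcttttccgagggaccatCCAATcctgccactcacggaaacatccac
HLA-DPB1: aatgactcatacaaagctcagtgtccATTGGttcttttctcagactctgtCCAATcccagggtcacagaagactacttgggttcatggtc

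These stretches lie on chromosome 6, at chr6:32589884-32589973 for HLA-DRB1, chr6:32953133-32953222 for HLA-DMA, chr6:32941064-32941153 for HLA-DMB and chr6:32666693-32666782 for HLA-DQB1, all on the minus strand. HLA-DQA1 (chr6:32637281-32637370) and HLA-DPB1 (chr6:33075865-33075954) are on the plus strand. Searched on both strands, ATTGG was present in 7 of the 8 genes, and in 34.6% of all 35116 windows. HLA-DPA1 had 2 windows and ATTGG in neither. GCAAC was present in 3 genes (33.6% of all windows). GCAAC followed on the same strand by ATTGG after 10 to 30 bases was present in HLA-DRB1 alone (0.783% of all windows). CTGATGATG was present in HLA-DRB1, HLA-DMA and HLA-DMB (0.271% of all windows), starting 74, 108 and 83 bases before the start. In HLA-DMB the ATTGG match was the reverse CCAAT, 22 bases before the start and outside the printed stretch. In CD74 it was also the reverse CCAAT, 53 bases before the start. A match in these letters does not show a bound site.

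All 10 genes had a higher level in REH than in 697, with log2 ratios from 1.07 to 4.18 and a median of 1.95. All 10 reached the minimum of 10 reads in both libraries. The median over all 19145 genes tested was 0.05. Together the genes took 0.794% of gene reads in REH and 0.217% in 697. The threshold was passed by 5 of the 10, namely HLA-DMB, CIITA, HLA-DQB1, HLA-DQA1 and HLA-DMA, and by none in the direction of 697. Among all genes tested, 12.5% were called higher in REH and 8.15% higher in 697. Among protein-coding genes that reached 1000 reads in REH or 697, which include all 10 genes, 4.41% were called higher in REH. The call divided genes with close values, since HLA-DMA (log2 ratio 2.10) lay just inside the threshold and HLA-DRB1 (1.80) just outside.

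**Figure D1:**
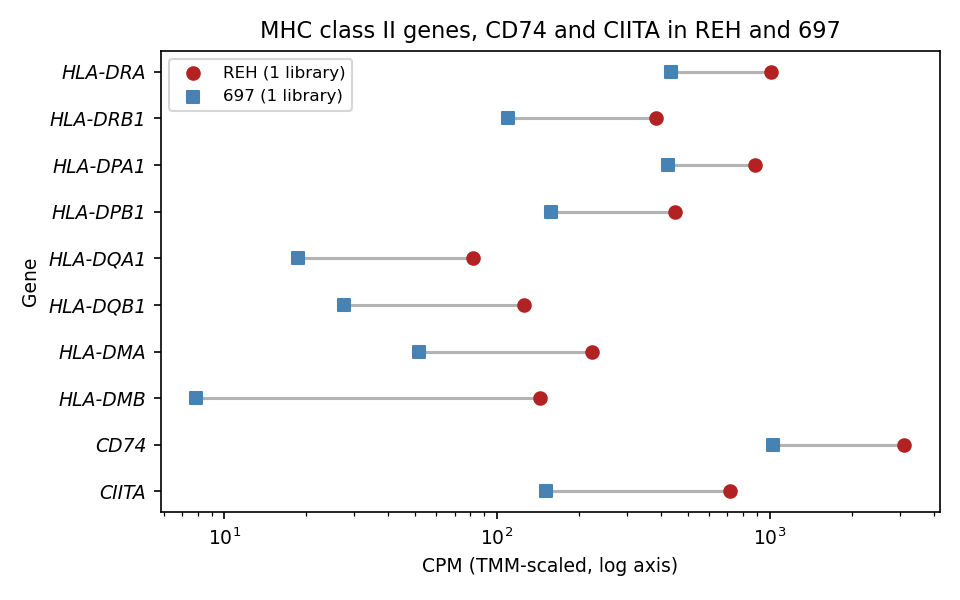
Level of the 10 genes in REH (red circles) and 697 (blue squares), in TMM-scaled CPM on a log axis, with 1 library per line. Each REH point lies to the right of its 697 point, and the gap is widest for HLA-DMB (143 CPM against 7.90 CPM).

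CIITA, the master coactivator of the class II genes (chromosome 16, 10866222 to 10943021, plus strand, GENCODE 44 on GRCh38), had 36029 reads in REH and 5601 reads in 697. This corresponds to 717 CPM in REH (95% Wilson interval 709 to 724) and 152 CPM in 697 (148 to 156). The log2 ratio was 2.24 (interval 2.20 to 2.28), a 4.73-fold difference. CIITA shares exons with genes on the opposite strand, DEXI among them, and reads in such stretches are missing from the counts. Summing the strand columns, which counts a shared read for both genes, added 2351 reads in REH and 647 reads in 697. The log2 ratio of CIITA was then 2.19, below its counting interval. Which gene these reads came from is not known.

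The HLA-DR chains form the class II molecule that is usually most abundant on B cells. HLA-DRA, the nearly invariant alpha chain (chromosome 6, 32439878 to 32445046), had 50827 reads or 1011 CPM in REH and 16085 reads or 435 CPM in 697. Its log2 ratio was 1.22 (interval 1.19 to 1.24). HLA-DRB1, the polymorphic beta chain (chromosome 6, 32577902 to 32589848), had 19194 reads or 382 CPM in REH and 4063 reads or 110 CPM in 697, with a log2 ratio of 1.80 (1.75 to 1.85). The ratio thus was larger for the beta chain than for the alpha chain. HLA-DRB1 resembles other DRB genes and varies between people, so reads that fit several copies, or that fit the reference poorly, are lost in an unknown share that may differ between the lines.

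The HLA-DP genes lie head to head on chromosome 6 and overlap at their 5′ ends. HLA-DPA1, the alpha chain (33064569 to 33080775), had 44574 reads or 887 CPM in REH and 15636 reads or 423 CPM in 697. Its log2 ratio of 1.07 (1.04 to 1.09) was the smallest of the 10. HLA-DPB1, the beta chain (33075990 to 33089696), had 22568 reads or 449 CPM in REH and 5843 reads or 158 CPM in 697, with a log2 ratio of 1.51 (1.46 to 1.55). Summing the strand columns put back 4023 reads in REH and 1032 reads in 697 for each gene, the equal numbers being the stretch that both genes share. This was 15.1% of the summed HLA-DPB1 reads in REH and 15.0% in 697.

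The HLA-DQ genes were the least abundant of the presenting chains in both libraries. HLA-DQA1, the alpha chain (chromosome 6, 32628179 to 32647062), had 4110 reads or 81.8 CPM in REH and 687 reads or 18.6 CPM in 697, with a log2 ratio of 2.14 (2.02 to 2.26). HLA-DQB1, the beta chain (32659467 to 32668383), had 6301 reads or 125 CPM in REH and 1017 reads or 27.5 CPM in 697, with a log2 ratio of 2.19 (2.09 to 2.28). The intervals of the pair overlapped. Both chains are polymorphic, so the limit given for HLA-DRB1 holds for them too.

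HLA-DM acts in endosomes and is far less polymorphic. HLA-DMA (chromosome 6, 32948613 to 32969094) had 11197 reads or 223 CPM in REH and 1921 reads or 52.0 CPM in 697, with a log2 ratio of 2.10 (2.03 to 2.17). HLA-DMB (32934629 to 32941028) had 7209 reads or 143 CPM in REH and 292 reads or 7.90 CPM in 697. Its log2 ratio of 4.18 (4.01 to 4.36), an 18.1-fold difference, was the largest of the 10 and 1.94 above the next, that of CIITA. Both HLA-DM genes share exons with ENSG00000248993 on the same strand, and reads in such stretches may be missing from every column. HLA-DMA also shares exons with BRD2 on the opposite strand, where summing the strand columns put back 67 reads in REH and 62 reads in 697. CD74, the invariant chain (chromosome 5, 150401637 to 150412969), was the most abundant by reads, with 156702 reads or 3117 CPM in REH and 38036 reads or 1029 CPM in 697. Its log2 ratio was 1.60 (1.58 to 1.61).

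**Figure D2:**
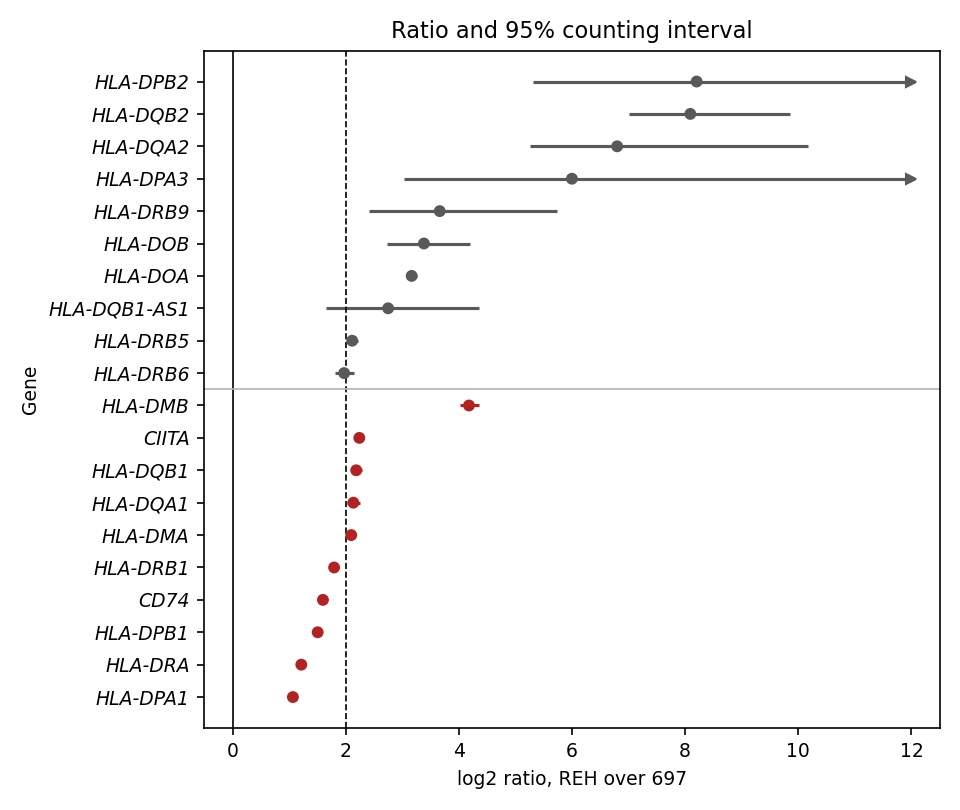
Log2 ratio of REH over 697 (points) with its 95% counting interval (lines) for the 10 genes (red, below the grey line) and the 10 other class II genes that reached 10 reads in REH or 697 (grey, above it). The dashed line marks a ratio of 2, arrows mark intervals with no upper bound because 697 had 0 reads (those points depend on the 0.5 reads added), and every red point lies above 0.

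Because scaling and gene length cancel when a ratio of chains is compared between libraries, the read ratio of 2 chain genes was set side by side. The loss of reads at polymorphic genes does not cancel, and the intervals do not cover it. HLA-DRB5, another DRB gene with 6259 reads in REH and 1062 in 697, is not part of the HLA-DRA over HLA-DRB1 ratio. HLA-DMA had 1.55 reads per HLA-DMB read in REH and 6.58 in 697, a difference of -2.08 on the log2 scale (REH minus 697, exact conditional interval -2.27 to -1.90). The difference was -0.58 for HLA-DRA over HLA-DRB1 (-0.64 to -0.52) and -0.44 for HLA-DPA1 over HLA-DPB1 (-0.49 to -0.39). For HLA-DQA1 over HLA-DQB1 it was -0.05, with an interval (-0.20 to 0.10) that includes 0. In DR, DP and DM the beta chain thus had the larger ratio between the libraries. CIITA had 0.709 reads per HLA-DRA read in REH and 0.348 in 697, a difference of 1.03 (0.98 to 1.07).

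**Figure D3:**
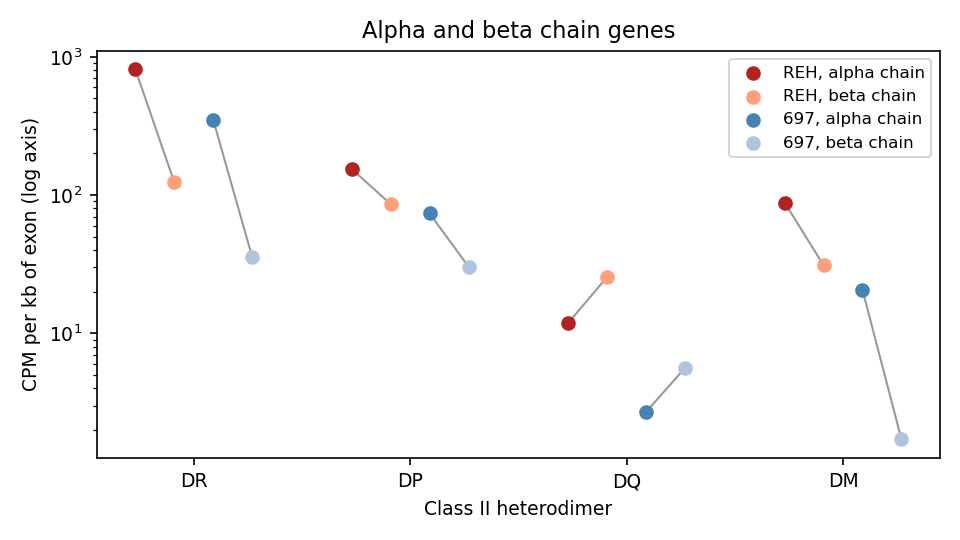
CPM per kb of exon (log axis) of the alpha chain gene (dark) and beta chain gene (light) of each dimer in REH (red) and 697 (blue), joined by a line within a library. The line is steepest for DM in 697, where HLA-DMB reached 1.71 CPM per kb and HLA-DMA 20.6 CPM per kb.

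Levels of different genes were compared per kb of exon, using the union of exons in GENCODE 44. In REH the order was HLA-DRA (813 CPM per kb), CD74 (689), HLA-DPA1 (154), HLA-DRB1 (124), HLA-DMA (88.4), HLA-DPB1 (86.0), CIITA (31.8), HLA-DMB (31.1), HLA-DQB1 (25.6) and HLA-DQA1 (11.9). The counting intervals of HLA-DMA and HLA-DPB1 overlapped, as did those of CIITA and HLA-DMB. In 697 the first places were again HLA-DRA (350 CPM per kb), CD74 (227) and HLA-DPA1 (73.6). HLA-DMB was last in 697 at 1.71 CPM per kb, behind HLA-DQA1 (2.70), HLA-DQB1 (5.62) and CIITA (6.72). Among 19208 protein-coding genes, 9 of the 10 were in the top 10% in REH and 5 in 697. HLA-DRA ranked 14th in REH and 62nd in 697, whereas HLA-DMB ranked 1109th and 9253rd. With the length of the longest transcript, CD74 (1019 CPM per kb) exceeded HLA-DRA (819) in REH but not in 697. With that of the canonical transcript, chosen after seeing the data, CD74 exceeded HLA-DRA in both libraries (1886 and 819 CPM per kb in REH, 623 and 353 in 697) and CIITA was last in REH and next to last in 697.

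The 4 other class II genes that reached 10 reads in both libraries had ratios from 1.97 to 3.38. Of 14 listed, 12 had an ID in the files, while HLA-DRB3 and HLA-DRB4 were not analysed here. Of the 12, 10 passed the minimum of 10 reads, 6 of them through the REH library alone (HLA-DRB9, HLA-DQA2, HLA-DQB2, HLA-DPB2, HLA-DPA3 and HLA-DQB1-AS1), so the filter bears on their direction and no count or median over all 10 is read. The other 4 reached 10 reads in both libraries, and 3 of these 4 were called higher in REH, beside 12.5% of all genes tested. HLA-DOA and HLA-DOB encode HLA-DO, a modulator of HLA-DM found mainly in B cells. HLA-DOA reached 288 CPM from 14478 reads in REH and 32.1 CPM from 1185 reads in 697 (log2 ratio 3.17, 3.08 to 3.25). HLA-DOB had 262 and 18 reads (3.38, lower bound 2.73). Thus HLA-DOA, HLA-DOB and HLA-DMB each exceeded the ratios of the presenting chains, with intervals that did not overlap them.

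The paralogs HLA-DQA2 (378 reads in REH and 2 in 697) and HLA-DQB2 (2040 and 5) had almost all of their reads in the REH library, with log2 ratios of 6.80 (interval 5.26 to 10.17) and 8.09 (upper bound 9.85). They resemble HLA-DQA1 and HLA-DQB1, so their reads are uncertain. HLA-DRB5 had 6259 and 1062 reads (log2 ratio 2.11) and the pseudogene HLA-DRB6 1834 and 343 (1.97). The carriage of these DRB genes differs between haplotypes, and the lines were not typed here. The pseudogenes HLA-DPB2 (200 reads in REH) and HLA-DPA3 (43 reads) had 0 reads in 697. With the floor of 3 reads taken for 697 they were 49.0-fold and 10.5-fold higher in REH. The lower bounds of their counting intervals were log2 ratios of 5.30 and 3.04. The pseudogene HLA-DRB9 had 77 and 4 reads. The antisense transcript HLA-DQB1-AS1 had 59 and 6 reads, but it shares exons with HLA-DQB1. Of its summed strand columns, 96.0% in REH and 96.7% in 697 were missing from these counts, so its level is uncertain. HLA-DPA2 (7 and 2 reads) and HLA-DQB3 (0 in both) stayed under the minimum.

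The genes for the proteins that recruit CIITA to class II promoters stayed under the threshold. Of the 8 genes of this complex, 8 were tested and none passed the threshold, with a median log2 ratio of -0.11. Over all genes tested, 12.5% were called higher in REH and 8.15% higher in 697. Among protein-coding genes that reached 1000 reads in REH or 697, 4.41% were called higher in REH. A count of 0 in so short a list is therefore not read as a result. The RFX subunits had levels of 210 CPM in REH and 196 CPM in 697 for RFX5 (log2 ratio 0.10), 28.3 and 49.6 CPM for RFXAP (-0.81) and 40.0 and 33.2 CPM for RFXANK (0.27). The NF-Y subunits NFYA (-0.32), NFYB (-0.61) and NFYC (0.25) and the CREB family genes CREB1 (-0.33) and ATF1 (0.67) also lay within 1 of 0 on the log2 scale. Without TMM scaling the log2 ratios rise by 0.31, which turns the median of this list to 0.20.

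Of 16 genes listed as CIITA regulators, with the CIITA partner ZXDC among them, 1 was called higher in REH and 2 higher in 697. Over all genes tested these shares were 12.5% and 8.15%. SPI1, which encodes the myeloid and B-lineage factor PU.1, had 2810 reads or 55.9 CPM in REH and 19 reads or 0.514 CPM in 697 (log2 ratio 6.73, 6.12 to 7.50). IRF8, a partner of PU.1, had 320 and 953 reads (-2.02, -2.21 to -1.83), and this call was lost without TMM scaling. PRDM1, which encodes the CIITA repressor BLIMP1, had 48 and 200 reads (-2.49, -2.99 to -2.04). The B-lineage factors PAX5 (log2 ratio -0.63), EBF1 (0.13), TCF3 (-0.08) and IRF4 (-0.39) were abundant in both. On the interferon gamma route, the receptor genes IFNGR1 (1.23) and IFNGR2 (0.92), the factor IRF1 (1.22), IRF2 (-0.03), JAK2 (0.02) and JAK1 (-1.29) stayed under the threshold. So did the CIITA partner ZXDC (-0.25) and the histone methyltransferase EZH2 (0.12).

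**Figure D4:**
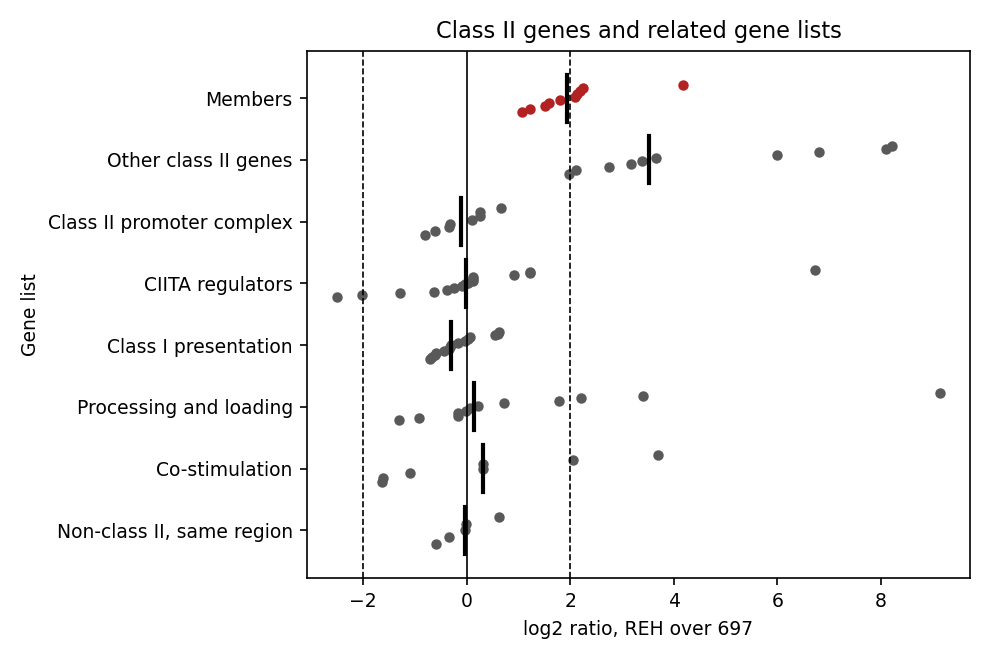
Log2 ratio of REH over 697 for each gene that reached 10 reads in REH or 697 (points, spread vertically to be visible), by gene list, with the list median as a black bar and dashed lines at -2 and 2. The 10 genes (labelled members) lie between 1.07 and 4.18 with a median of 1.95, while the promoter complex (-0.11) and class I presentation genes (-0.31) have medians near 0. Of the 10 other class II genes, 6 reached 10 reads in REH alone, so the filter bears on where they lie.

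The ratios of 15 genes of antigen presentation by MHC class I all lay below those of the 10 genes. They ran from -0.71 to 0.62 with a median of -0.31 (0.00161 without scaling). None of the 15 passed the threshold. Among all genes tested, 12.5% were called higher in REH and 8.15% higher in 697. Among protein-coding genes that reached 1000 reads in REH or 697, 4.41% were called higher in REH, so this count is not read as a result. The class I transactivator NLRC5, a relative of CIITA, had 363 CPM in REH and 240 CPM in 697. Inside the class II region, 5 tested protein-coding genes that are not class II genes (TAP1, TAP2, PSMB8, PSMB9 and BRD2, of which all but BRD2 are in the class I list too) had ratios from -0.59 to 0.62. Around CIITA, the 3 nearest protein-coding genes on each side had a median ratio of 1.05 with none past the threshold. They were DEXI (1.38), TEKT5 (1.08), CLEC16A (1.06), TVP23A (1.03), NUBP1 (0.80) and RMI2 (-0.18). TEKT5 had 24 reads in REH and 8 in 697 (interval -0.06 to 2.51), so it reached 10 reads in REH alone and the filter bears on its direction. Of all 19145 genes tested, 4293 had a ratio of 1 or more. Whether CIITA and its neighbours shift together was not tested. Around CD74, SYNPO was called higher in 697 (251 and 7856 reads), and the other 4 tested neighbours, with ratios from -1.93 to 1.50, passed the threshold in neither direction. The upper value was that of CAMK2A, with 13 and 3 reads and an interval of -0.19 to 4.12.

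Genes of endosomal processing were mixed, with 3 of 12 tested called higher in REH, none higher in 697 and a median log2 ratio of 0.14. Of these 3, CTSL and IFI30 reached 10 reads in REH alone, and over all genes tested 12.5% were called higher in REH. CTSL, a cathepsin that trims CD74 in some cells, had 381 reads in REH and 0 in 697. With the floor of 3 reads taken for 697 it was 93.3-fold higher in REH (lower bound of the log2 ratio 6.24). CD82, a tetraspanin of class II compartments, had 172 and 27 reads (log2 ratio 2.20). IFI30, a thiol reductase of these compartments, had 21 and 1 reads. CTSS, the main CD74-degrading cathepsin of B cells, had 1829 and 392 reads (1.78, 1.62 to 1.94). In the co-stimulation list, 2 of 7 tested genes were called higher in REH, namely CD40 (539 and 30 reads, 3.70) and the adhesion molecule ICAM1 (850 and 150 reads, 2.05). CD80 had 1 read in each library and CD86 had 4 reads in each, so these ligands of CD28 were near the floor in both lines.

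Markers of other cells were inspected because myeloid and dendritic cells also express class II genes. Of 10 such markers 5 were tested, and 3 of these were called higher in REH, beside 12.5% of all genes tested. CD14, ITGAM and LILRA4 reached 10 reads in REH alone, so the filter bears on their direction. The 10 markers summed to 262 CPM in REH and 2.54 CPM in 697. Nearly all of the REH level came from MPO, the granule peroxidase of myeloid precursors, with 12643 and 12 reads. ITGAM had 403 and 0 reads and LILRA4 had 44 and 2. CSF1R went the other way with 30 and 61 reads (log2 ratio -1.46, -2.15 to -0.81), CD14 had 29 and 8 reads, and CD1C had 1 and 8. LYZ (1 and 2 reads), ITGAX (1 and 0) and CLEC9A (0 in both) were at or under the floor. In the T-lineage list 5 of 6 markers were in the files, with a summed level of 0.935 CPM in REH and 0.298 CPM in 697. CD3D and CD2 were at 0 in both, CD3E had 45 reads in REH alone and CD8A 10 reads in 697 alone. The 5 stromal markers summed to 34.4 CPM and 65.4 CPM, mostly from PDGFRB (1197 and 2005 reads) and COL1A1 (477 and 387 reads). ACTA2 had 56 and 26 reads, and COL1A2 and COL3A1 were at 0 in both. Within the B-lineage list, MS4A1 (670 and 19 reads) and CD79B (24198 and 4443 reads, at the threshold itself) were called higher in REH, and VPREB1 higher in 697. The part of these marker differences in the class II result was not tested.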

How the data were processed

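The authors deposited a file of unnormalized gene counts for each of the lines. Per the study's methods, RNA was poly(A) purified, prepared with a TruSeq kit, sequenced on a NextSeq instrument and aligned with STAR, while the labels describe ribodepleted stranded libraries. The methods name genome hg38 and the submitters' processing notes hg19. The annotation release is not given in the sources used here. Gene counts hold uniquely mapped reads only, which lowers genes with near-identical copies. Of the reads on a strand, 50.1% in REH and 50.2% in 697 were on that of the gene, so the column without strand was used, and reads shared by genes that overlap on opposite strands are missing from it.

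Gene IDs (51996 of 57773) were matched to GENCODE 44 for symbols, positions on GRCh38 and exon lengths. Positions are therefore not those of the authors. Genes that reached 10 reads in REH or 697 were compared. TMM factors (edgeR 4.0.16, R 4.3.3) were 1.11 for REH and 0.899 for 697. Ratio intervals are exact Clopper-Pearson intervals of the share of reads from REH, and intervals of a level are Wilson intervals. Both cover counting error only. The study used DESeq2, which needs replicates, so a log2 ratio of 2 in size replaced a test. Further steps used Python 3.11.15 with pandas 2.3.3 and scipy 1.17.1. The computation was tested on simulated data.

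The genes and all lists were chosen with earlier results of these data known. Named were the 10 genes, the other class II genes, the promoter complex and CIITA regulators, of which 1 is not reported here by name. From other lists, called genes with at least 100 reads were named, at most 5 a list. IFI30, CTSS, CD80, CD86, NLRC5, the markers and the neighbours under the threshold were named after their values were seen.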

Additional observations from a re-analysis of the deposited data

How the results depend on the processing

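No paired analysis was possible because REH and 697 have 1 library each, and for that reason no replicate could be left out. The alternatives were unscaled totals, DESeq2 1.42.0 size factors, TMM from protein-coding genes, 5 reads added, a minimum of 1 or 50 reads, each strand column, their sum, totals without mitochondrial genes, and a threshold of 1. The 10 ratios kept their sign under each of them. The number of the 10 genes called higher in REH was 5 or, with unscaled totals, 6 (HLA-DRB1 joining) and, with the opposite strand, 4 (HLA-DMA leaving). At a threshold of 1 it was 10. None was called higher in 697 under any. The median ratio left its counting interval (1.88 to 2.01) with unscaled totals alone, at 2.25, where the median over all genes was 0.36. Of 100 single ratios recomputed, 24 left their counting interval and none changed sign. Levels per kb depended on the length used, since 15 of 20 left their counting interval with the longest transcript (and 15 with the strand columns summed) and 18 of 20 with the canonical transcript, the single alternative added after seeing the data. With 1 library per line, variation between cultures is not measured by any of these values.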
